A study of Drosophila melanogaster with 2 samples.

Results

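The 92 genes of Drosophila melanogaster that are named for cytoplasmic ribosomal proteins were examined for binding of Eip93F. They were taken by symbol from the 13968 protein-coding genes annotated on the chromosome arms. Every gene whose symbol starts with RpL or RpS followed by a digit, A or P was a member, and the mitochondrial mRp genes were left out. The members comprised 54 genes of the large subunit, which include the stalk proteins, and 38 genes of the small subunit. The rule does not take up sta, which encodes another protein of the small subunit and held no peak. It does take up symbols that end in -like, and these genes were counted with the subunit of their name. Chromosome arm 3R carried 23 members, 2R carried 21, 2L carried 19, X and 3L carried 14 each, and the small chromosome 4 carried 1.

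Chromatin immunoprecipitation with sequencing was done on whole prepupae of mixed sex from the strain Eip93F-MiMIC-GFP, in which a GFP exon inserted in an intron of Eip93F makes an Eip93F-GFP fusion protein. Fragments of 200 to 800 bp were precipitated with an antibody against GFP in 2 biological replicates of this 1 genotype and stage. The age of the prepupae is unknown, there was no second condition, and the tissues of the whole animal cannot be told apart. The labels do not say whether the replicates came from separate crosses, so their spread may be technical.

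Ribosomal proteins build the large and small subunits of the ribosome around the ribosomal RNAs, and their genes are transcribed in step with the demand for growth. In Drosophila many of them start transcription at a polypyrimidine stretch, the TCT initiator, in place of the usual initiator sequence. Eip93F, also called E93, is switched on by the steroid hormone ecdysone and, as a transcription factor, acts in the passage from larva to adult.

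The sequences below show where the peaks lay relative to the starts. They were read from the Release 6 genome (dm6) of RefSeq and run in the direction of transcription of the named gene. The first 8 runs begin 20 bases upstream of the summit, so that the summit is their base 21, and end 10 bases after the first annotated start. They cover every member summit within 200 bp upstream of the first start, except on 1 chromosome arm whose sequences are not printed here, and show what lies between summit and start. The capitals mark the TCT initiator words around the start, the DNA replication-related element core in RpL27 and the motif 1 core in RpLP1. RpL24, RpS20 and RpS21 hold none of the words searched for.
RpL13A, chr3R:5624358-5624484, plus strand: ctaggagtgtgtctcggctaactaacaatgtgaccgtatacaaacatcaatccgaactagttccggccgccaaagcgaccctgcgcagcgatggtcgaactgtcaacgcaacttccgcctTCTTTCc
RpL24, chr2L:13395121-13395253, minus strand: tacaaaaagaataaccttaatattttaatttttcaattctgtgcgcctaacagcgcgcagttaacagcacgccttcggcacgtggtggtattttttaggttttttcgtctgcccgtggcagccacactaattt
RpL27, chr3R:25685041-25685114, minus strand: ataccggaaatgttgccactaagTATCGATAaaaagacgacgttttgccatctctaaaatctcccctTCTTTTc
RpL32, chr3R:30046151-30046371, minus strand: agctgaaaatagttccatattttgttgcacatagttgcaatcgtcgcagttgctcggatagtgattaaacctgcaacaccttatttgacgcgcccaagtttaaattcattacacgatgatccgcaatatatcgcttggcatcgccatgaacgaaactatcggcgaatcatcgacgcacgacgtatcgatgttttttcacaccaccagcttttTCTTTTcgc
RpLP1, chr2L:419820-419962, plus strand: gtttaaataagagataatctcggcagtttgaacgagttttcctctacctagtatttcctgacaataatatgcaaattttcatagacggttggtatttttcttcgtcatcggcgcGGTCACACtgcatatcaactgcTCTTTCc
RpS20, chr3R:20822045-20822191, plus strand: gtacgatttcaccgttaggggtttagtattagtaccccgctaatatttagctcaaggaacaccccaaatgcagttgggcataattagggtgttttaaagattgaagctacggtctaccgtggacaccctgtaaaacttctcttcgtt
RpS21, chr2L:2856009-2856080, plus strand: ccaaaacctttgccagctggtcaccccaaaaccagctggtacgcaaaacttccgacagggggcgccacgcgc
RpS27A, chr2L:10408209-10408362, plus strand: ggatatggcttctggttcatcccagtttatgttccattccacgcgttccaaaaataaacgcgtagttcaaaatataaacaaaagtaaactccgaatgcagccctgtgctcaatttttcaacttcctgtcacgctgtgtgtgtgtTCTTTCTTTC
In each run the summit lies upstream of the start, at distances from 41 bp (RpS21) to 190 bp (RpL32). In the other 6 runs the summit is the middle base of 41. With the summits of RpL32 and RpS21 above they cover the 8 strongest peaks at members outside that arm, and none of the 6 holds a word in capitals. The further summits of RpS21 lie, in this order, 247 bp upstream and 1131 bp downstream of the nearest start of the gene.
RpL34b, chr3R:9401444-9401484, minus strand: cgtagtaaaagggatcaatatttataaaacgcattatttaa
RpL4, chr3R:27925117-27925157, plus strand: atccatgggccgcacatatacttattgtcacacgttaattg
RpS14a, chrX:7933391-7933431, plus strand: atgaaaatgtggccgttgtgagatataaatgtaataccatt
RpS21, chr2L:2855803-2855843, plus strand: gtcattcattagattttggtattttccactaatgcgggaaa
RpS21, chr2L:2857222-2857262, plus strand: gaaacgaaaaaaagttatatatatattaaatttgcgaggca
RpS28b, chrX:9553852-9553892, plus strand: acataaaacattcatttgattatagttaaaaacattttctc

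A gene was said to have a peak when a summit of the authors' reproducible set of 3401 peaks lay in the gene or within 1000 bp of it. The strongest 3401 entries of the authors' pooled list of both replicates gave the same counts of members and of all genes. A peak of this set need not be strong in each replicate. Of the 26 summits at members, 10 lay among the strongest 3401 entries of both replicates. Peaks were found at 22 of the 92 ribosomal protein genes, or 23.9% (Wilson interval 16.4 to 33.6%, counting error only), against 19.9% of all protein-coding genes. The share of the members was therefore near the background. The members are short, however, with a median span of 1315 bp against 2164.5 bp for all genes, and a longer gene has more room for a summit. Among other protein-coding genes weighted to the same spans the share was 12.8%, which would give 11.8 members in place of 22. A summit within 500 bp of an own transcription start site (TSS) was found for 15 members, or 16.3% (10.1 to 25.2%), against 12.7% of all genes and 8.91% of the span-matched other genes.

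The 22 members held 26 summits, each counted for 1 member only. Of these, 19 lay upstream of the gene, 6 downstream and 1 inside it. The summits stood in no protein-coding gene in 21 cases and in a neighbouring one in 4. The summits within 500 bp of an own TSS numbered 16, and 15 of them (93.75%) were upstream of it, at a median distance of 122 bp. Over all genes 81.4% of 2021 such summits were upstream, at a median of 156 bp. From 100 to 200 bp upstream of the first start, 7 of the 92 members (7.61%) had a summit, against 3.65% of all genes. Among the 100 bp bins within 1000 bp of the start, this was the fullest in both groups.

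The peaks ran from strong to weak for this data set, with more of them in the weaker part. The signal, the score that the authors' caller gave each peak and that can be compared only inside 1 list, ran from 92.1 to 284.9 with a median of 119, against 129 for the whole set. In the order of signal the peaks ranked from 291 to 3268 of 3401. The strongest 1000 peaks held 6 of the 26, or 23.1%, against 29.4% of the whole set, and 17 of the 26 were in the weaker part below the middle of the set.

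**Figure D1:**
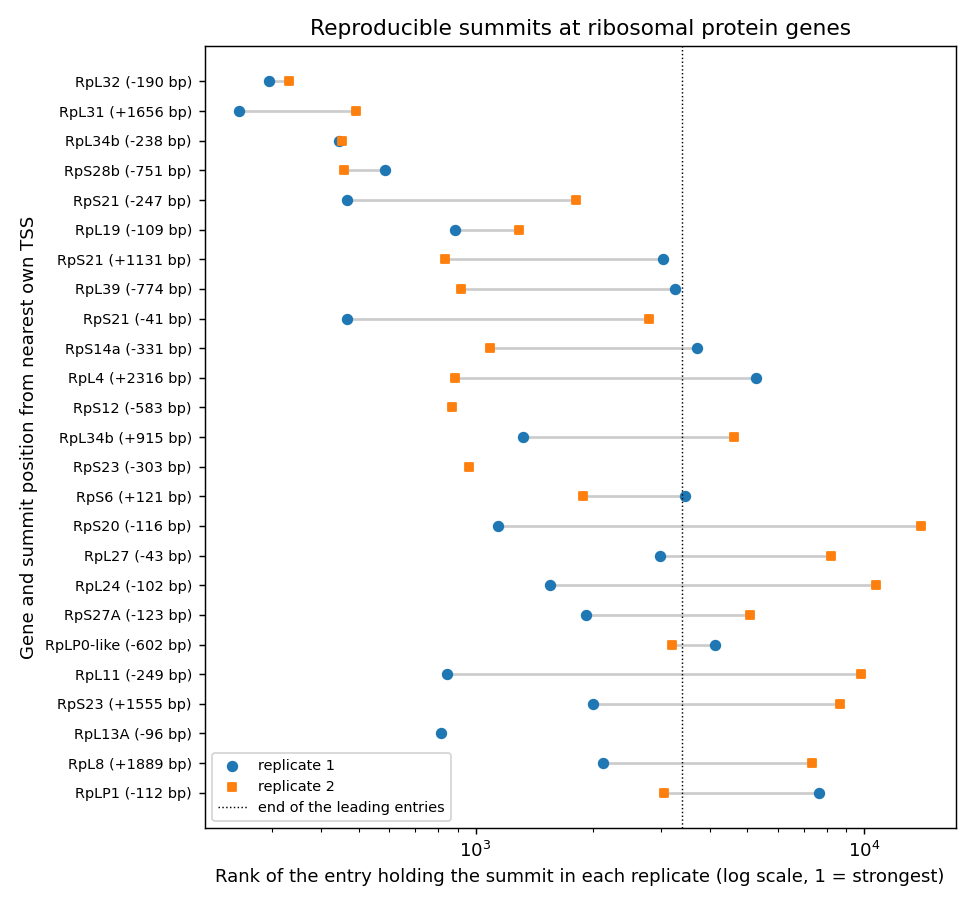
The horizontal axis gives, on a log scale, the rank of the entry that holds 25 of the 26 summits in replicate 1 (circles) and replicate 2 (squares), and the vertical axis gives the gene with the summit's signed distance to its nearest own TSS, strongest reproducible peak on top. The points of RpL32, RpL34b (-238 bp) and RpS28b lie close together, those of RpS20, RpL24 and RpL11 far apart, and RpL13A, RpS12 and 1 summit of RpS23 have an entry in 1 replicate only.

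In the large subunit 14 of 54 genes had a peak (25.9%, Wilson interval 16.1 to 38.9%). RpL32 (FBgn0002626), whose transcript is widely used as a reference in fly expression studies, had the strongest peak of all members. It lay at chr3R:30046146-30046555, with a signal of 285, and ranked 294 in replicate 1 and 332 in replicate 2. Its summit was 190 bp upstream of RpL32 and 119 bp from the TSS of CG7943, which is transcribed in the opposite direction. RpL31 (FBgn0285949), whose product lies at the rim of the peptide exit tunnel, was next with a signal of 281 at chr2R:9588829-9588972 and replicate ranks of 246 and 494 in replicates 1 and 2. That summit was 902 bp beyond the end of the gene, inside clos, and 159 bp from the TSS of CG1827.

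RpL34b (FBgn0037686), which has a paralogue RpL34a, carried 2 peaks. The stronger one, at chr3R:9401259-9401668, had a signal of 246 and replicate ranks of 446 and 454 in replicates 1 and 2. Its summit was 238 bp upstream of RpL34b and 31 bp from the TSS of CG8132. The weaker one had a signal of 118, replicate ranks of 1326 and 4609, and lay 52 bp from the TSS of CG34117. Thus both peaks of RpL34b were nearer to the start of a neighbour than to its own. RpL19 (FBgn0285950), a large-subunit gene at chr2R:24969451-24969860, had a signal of 170 and replicate ranks of 888 and 1296, with the summit 109 bp upstream of it and 22 bp from the TSS of CG3776.

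A group of weak peaks stood at the starts of 4 further large-subunit genes and had no nearer TSS of another gene. RpL11 (FBgn0013325), whose product joins RpL5 and the 5S ribosomal RNA in a particle of the large subunit, had a signal of 98.3 at chr2R:19441888-19442297, with its summit 249 bp upstream. It ranked 847 in replicate 1 and 9814 in replicate 2. RpL13A (FBgn0037351) had a signal of 94.2 at chr3R:5624173-5624582, with its summit 96 bp upstream, and ranked 817 in replicate 1 with no entry over the summit in replicate 2. These peaks were among the leading 1000 entries of replicate 1 and far down or absent in replicate 2. RpL24 (FBgn0032518) had a signal of 104 at chr2L:13395028-13395437, with its summit 102 bp upstream, and replicate ranks of 1558 and 10746 in replicates 1 and 2. RpL27 (FBgn0039359) had a signal of 106 at chr3R:25684889-25685298, with its summit 43 bp upstream, and replicate ranks of 2975 and 8220. All 4 of these genes ranked better in replicate 1 or had an entry there alone. RpLP1, given below with the stalk, also had a weak peak at its own start and went the other way. It ranked 7649 in replicate 1 and 3057 in replicate 2.

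The other peaks of the large subunit belonged to starts of neighbours by distance. RpL39 (FBgn0023170), which encodes a small protein of the exit tunnel, had a signal of 137 at chr2R:24063000-24063409 and replicate ranks of 3251 and 915, with the summit 774 bp upstream of it and inside Rap2l. RpL4 (FBgn0003279), whose product reaches into the exit tunnel, had a signal of 121 at chr3R:27924932-27925341 and replicate ranks of 5259 and 888, with the summit downstream of the gene and 54 bp from the TSS of mino. RpL8 (FBgn0261602), whose product lies near the peptidyl transferase centre, had a signal of 93.7 downstream of the gene, 69 bp from the TSS of dos. None of these 3 summits was within 500 bp of the member's own TSS.

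The stalk of the large subunit, which recruits the elongation factors, is built from P0 and the acidic P proteins. RpLP1 (FBgn0002593), an acidic stalk protein, had the weakest of all 26 peaks, with a signal of 92.1 at chr2L:419635-420044. Its summit was 112 bp upstream of its own TSS, the nearest one, and it ranked 7649 in replicate 1 and 3057 in replicate 2. RpLP0-like (FBgn0033485), a relative of P0, had a signal of 100 at a summit 602 bp upstream of it and inside 14-3-3zeta, with ranks of 4130 and 3208. RpLP0 itself had no peak.

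In the small subunit 8 of 38 genes had a peak (21.1%, Wilson interval 11.1 to 36.3%), and this interval overlaps that of the large subunit. RpS28b (FBgn0030136), which has a paralogue RpS28a, had the strongest peak of the small subunit, with a signal of 230 at chrX:9553667-9554076 and replicate ranks of 585 and 458 in replicates 1 and 2. Its summit was 751 bp upstream of RpS28b and 122 bp from the TSS of l(1)G0320. RpS21 (FBgn0015521), known for blood-cell overgrowth in its mutants, had 3 peaks. The strongest, at chr2L:2855618-2856027, had a signal of 194 and replicate ranks of 467 and 1814, and its summit was 247 bp upstream of RpS21 and 45 bp from the TSS of CG3104. The next, at chr2L:2857037-2857446, had a signal of 144 and replicate ranks of 3031 and 834, and lay inside CG2991. The third by strength, at chr2L:2855824-2856233, had a signal of 126, and its summit was 41 bp upstream of RpS21, nearer than any other TSS. In replicate 1 the summits 247 and 41 bp upstream fell in 1 and the same entry, of rank 467, and in replicate 2 they fell in entries of ranks 1814 and 2796.

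RpS14a (FBgn0004403), 1 of 2 neighbouring copies of the gene on X, had a signal of 124 at chrX:7933206-7933615 and replicate ranks of 3718 and 1087. Its summit was 331 bp upstream of RpS14a and 60 bp from the TSS of Dhdds, while the copy RpS14b had no peak. RpS12 (FBgn0286213), which is required for cell competition in the fly, had a signal of 120 at chr3L:13022564-13022973, 583 bp upstream of it and 81 bp from the TSS of Adk2. That peak ranked 868 in replicate 2 and had no entry over the summit in replicate 1. RpS23 (FBgn0033912), whose product lies at the decoding centre, had a signal of 114 at chr2R:14216725-14217134, with the summit 303 bp upstream, and it too had an entry in replicate 2 alone, of rank 960. Its other peak, 1555 bp downstream of the nearest start, had a signal of 94.3 and replicate ranks of 2005 and 8662. The replicates thus ranked the 2 peaks of RpS23 in opposite orders.

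RpS6 (FBgn0261592), the substrate of S6 kinase in growth signalling, was the 1 member with a summit inside its own gene. The summit was 121 bp downstream of its TSS at chrX:7901005-7901414, with a signal of 113 and replicate ranks of 3467 and 1891 in replicates 1 and 2. RpS20 (FBgn0019936) had a signal of 112 at chr3R:20821860-20822269, with the summit 116 bp upstream, and replicate ranks of 1143 in replicate 1 and 14024 in replicate 2, the widest gap among the summits with an entry in both replicates. RpS27A (FBgn0003942), which is made as a fusion with ubiquitin, had a signal of 103 at chr2L:10408024-10408433 and replicate ranks of 1927 and 5092. Its summit was 123 bp upstream of a first start that it shares with Ip259, so the peak cannot be given to either gene by distance.

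Of the 26 summits, 14 were nearer to the TSS of another protein-coding gene than to that of the member, and 12 had the member's own TSS as the nearest, 1 of them tied. The members often stand back to back with another gene. A protein-coding gene that starts within 1000 bp upstream on the opposite strand was annotated for 17 of the 22 members with a peak (77.3%) and 37 of the 70 without (52.9%). Over all protein-coding genes these shares were 47.7% with a peak and 29.7% without. When only the gene with the nearest TSS was credited with a peak, 10 members had one and the ratio to the span-matched other genes was 1.21, in place of 1.87. Which gene of a pair a peak acts on was not tested.

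Entries of any rank near the starts were then counted in the full list of each replicate, which holds 30000 entries with background included. In replicate 1, 44 of the 92 members (47.8%, Wilson interval 37.9 to 57.9%) had an entry with its summit in the 200 bp upstream of the first annotated start, against 20.3% of all protein-coding genes. In replicate 2 the count was 27 (29.3%, 21 to 39.3%) against 18.1%. The share of members was thus above the background in both replicates and higher in replicate 1. Downstream the difference in percentage points was smaller. In each replicate 12 members (13.0%) had an entry within 200 bp, against 8.66% and 8.03% of all genes in replicates 1 and 2. As a ratio to all genes, the excess was smaller downstream in replicate 1 and alike on both sides in replicate 2. In the reproducible set 10 members (10.9%, 6.01 to 18.9%) had a summit in the upstream window, against 5.94% of all genes.

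**Figure D2:**
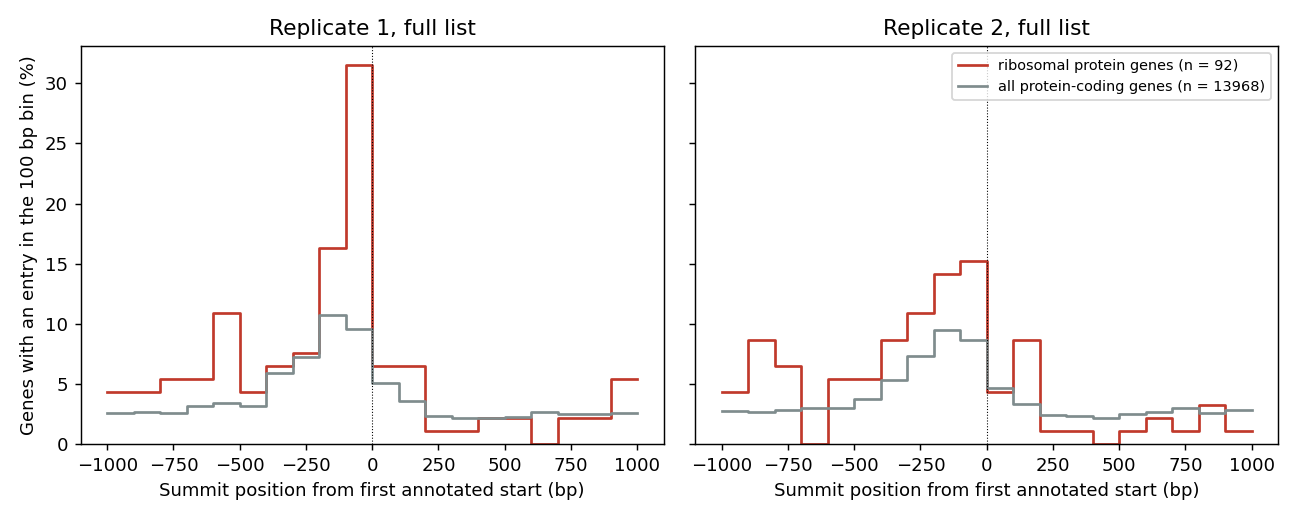
The horizontal axis is the summit position relative to the first annotated start in the direction of transcription, and the vertical axis is the percentage of genes with an entry in each 100 bp bin, for ribosomal protein genes and all protein-coding genes in the full lists of replicate 1 (left) and replicate 2 (right). In the bin just upstream of the start the members reach 31.5% in replicate 1 and 15.2% in replicate 2, against 9.57% and 8.64% of all genes.

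Of the members with an entry in the 200 bp upstream window, 20 had one in both replicates (21.7%) and 51 in at least 1 of them (55.4%), against 10.8% and 27.6% of all genes. The same window was counted for other gene lists, and their shares differed. The genes of the mitochondrial ribosomal proteins, which serve the separate ribosome of the mitochondrion, had such entries in 26 and 25 of 73 cases in replicates 1 and 2 (35.6% and 34.2%). Translation factors had them in 5 and 7 of 52 (9.62% and 13.5%), and proteasome subunits, which degrade proteins, in 10 and 9 of 48 (20.8% and 18.8%). The mitochondrial genes thus shared the high share upstream of the start, and their counts were alike in the replicates.

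The members' best entries lay mostly in the upper part of the lists, with few among the leading 300, as over all genes. An entry within 500 bp of an own TSS was held by 57 members in replicate 1 (62.0%) and 49 in replicate 2 (53.3%), against 43.9% and 43.1% of all genes. Among the leading 10000 entries the shares were 46.7% and 35.9%, against 27.7% and 26.4%. Among the leading 300 they were 1.09% in replicate 1 and 0 of 92 in replicate 2, against 1.34% and 1.37% of all genes. Counted in the gene or within 1000 bp, the shares in the leading 300 were 3.26% and 1.09%, against 2.60% and 2.61%. These shares rest on very few members. The best rank of an entry in the gene or within 1000 bp had a median of 4130 over 71 members in replicate 1 and 7570 over 72 members in replicate 2. Over all genes with an entry these medians were 6679.5 and 7204.

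**Figure D3:**
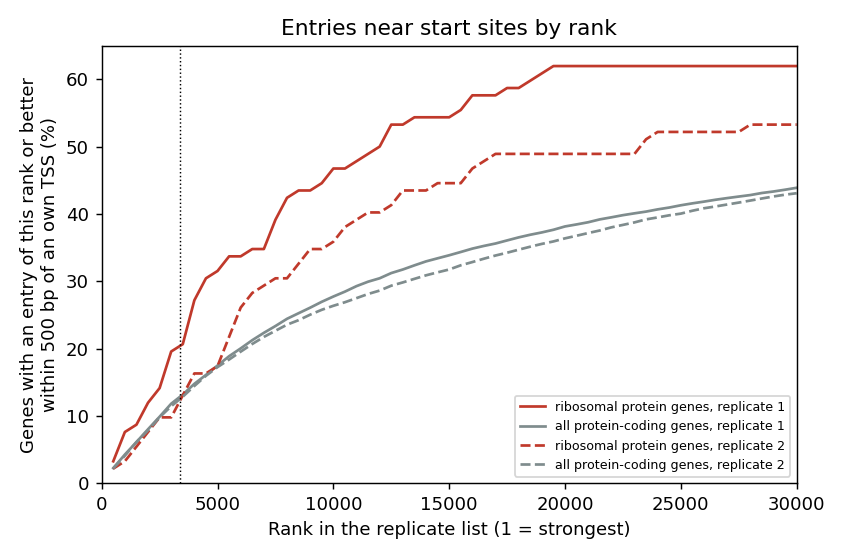
The horizontal axis is the rank in the full list of a replicate, and the vertical axis is the percentage of genes that have an entry of that rank or better within 500 bp of an own TSS, for ribosomal protein genes and all protein-coding genes in replicate 1 (solid) and replicate 2 (dashed); the dotted line is the number of leading entries. The members' line runs above that of all genes in replicate 1, and in replicate 2 it stays close to it up to the leading entries and rises above it further down.

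The replicates differed over these genes more than over all genes. Leading entries were the strongest 3401 of each replicate's own list. In replicate 1, 26 members had one in the gene or within 1000 bp (28.3%), against 20% of all genes and 13.0% of the span-matched other genes. In replicate 2, 19 members had one (20.7%), against 19.9% and 12.8%. Both replicates gave a leading entry at 11 members (12%, Wilson interval 6.81 to 20.2%), against 15.2% of all genes, which lies inside that interval, and 9.18% of the span-matched others. Within 500 bp of an own TSS 5 members had a leading entry in both (5.43%), against 8.91% of all genes.

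The 11 shared members were 42.3% of those found in replicate 1 and 57.9% of those found in replicate 2, against 75.9% and 76.3% for all genes. They included RpL19, RpL31, RpL32, RpL34b, RpL39, RpS12, RpS19b, RpS21, RpS23 and RpS28b. The leading entries of the replicates need not overlap, and at RpS12 the best ones had summits 333 bp upstream of the gene's start in replicate 1 and 579 bp upstream in replicate 2. Of the 34 members with a leading entry in either replicate, 32.4% had it in both, against 61.4% of all genes and 55.4% after weighting the other genes by span. Leading entries in replicate 1 alone were found at 15 members (16.3%) and in replicate 2 alone at 8 (8.70%), against 4.80% and 4.73% of all genes. The shares within classes of rank were as follows. Where the best entry in replicate 1 ranked from 1 to 1700, 9 of 13 members (69.2%) had a leading entry in replicate 2, against 89.2% of all genes. Where it ranked from 1701 to 3401, 2 of 13 members (15.4%) did, against 57.1%.

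Across the 61 members with an entry in both replicates, the best ranks had a Spearman correlation of 0.489, against 0.796 across 7596 genes of the whole annotation. These points are genes that share the same libraries and are not independent replicates. The better rank was in replicate 1 for 38 of the 61 members (62.3%) and for 47.8% of all such genes. Depth per library is unknown.

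**Figure D4:**
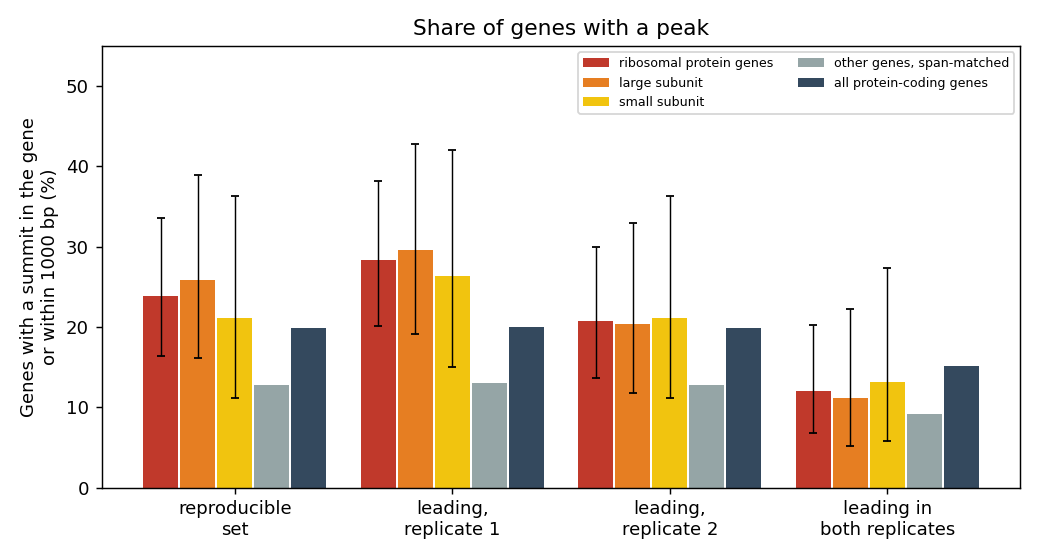
The vertical axis is the percentage of genes with a summit in the gene or within 1000 bp, with 95% Wilson intervals as bars on the ribosomal protein genes, the large subunit and the small subunit, beside the span-matched other genes and all protein-coding genes. The members stand at 23.9%, 28.3% and 20.7% in the reproducible set, replicate 1 and replicate 2, and at 12% in both replicates, against 12.8%, 13.0%, 12.8% and 9.18% of the span-matched genes and 19.9%, 20%, 19.9% and 15.2% of all genes.

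RpS19b, a paralogue of RpS19a, had the best ranks of any member in the replicates and yet no reproducible peak. Its entry ranked 142 in replicate 1 with a signal of 218 and 110 in replicate 2 with a signal of 180, with summits 883 and 865 bp upstream of its start. The pooled list used here holds no entry over that position. Of 2231 leading entries of replicate 1 whose summit fell in a leading entry of replicate 2, 27 had no pooled entry over it, and the one at RpS19b was the 1 among them that ranked within 300 in both replicates. Neither replicate had an entry of any rank within 500 bp of the own TSS of RpS19b. Another gene, CG5854, starts within 1000 bp upstream of RpS19b on the opposite strand. Which start these entries belong to was not tested. RpS19b was singled out after its values were seen.

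No peak was found at 70 members. The 5 of them whose best pooled entry ranked highest were RpS27 (rank 3471, 124 bp upstream), RpL35A (3603, 22 bp upstream), RpS5a (3669, 989 bp upstream), RpL10Ab (3674, 287 bp upstream) and RpS3A (3728, 318 bp upstream). These lay just past the 3401 entries of the reproducible set. At the distance limit, RpS28b, RpL39 and RpL31 were just inside with gaps of 751, 774 and 902 bp to the gene, and RpS2, RpL12 and RpS14b just outside with 1109, 1345 and 1487 bp. Neither replicate had an entry of any rank at 10 members (10.9%, against 25.3% of all genes), which included RpL22, RpL27A, RpL28, RpL36, RpL37-2, RpL7-like, RpS14b, RpS15Ab and RpS24.

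The promoters of members with and without a peak were searched for short words. The TCT initiator was taken as CCTTTC on the gene strand within 10 bases of a start, with either pyrimidine allowed as its first and as its last base. It stood at the first annotated start of 37 members (40.2%), against 1.98% of all protein-coding genes, and at any annotated start of 63 (68.5%), against 3.03%. At the first start 12 of the 22 members with a peak had it (54.5%) and 25 of the 70 without (35.7%). At any annotated start the shares were closer, with 16 of the 22 (72.7%) and 47 of the 70 (67.1%). The DNA replication-related element core TATCGATA, a palindrome, was found from 250 bases before to 50 after the first start of 28 members (30.4%), against 9.36% of all genes, with 7 of the 22 members with a peak and 21 of the 70 without. The motif 1 core GGTCACAC on either strand was found in 14 members (15.2%), against 7.70%. The GATA word AGATAAG on either strand, with T also allowed as its first base, was found in fewer members, 6 (6.52%) against 10.8% of all genes. GAGAG on either strand was likewise found in fewer, 16 members (17.4%) against 29.8%.

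The last 4 of these words were also counted within 50 bases on either side of the summits. The DNA replication-related element core stood at 2 of the 26 summits, those of RpL27 and RpL31, against 0.647% of all reproducible summits, and the motif 1 core at none, against 0.588%. The GATA word stood at 0 of 26 and at 6.73% of all reproducible summits. GAGAG stood at 1 summit, of RpL34b, and at 11.9% of all. None of these words contains another, and a match describes the letters in the window only.

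Genes for small nucleolar RNAs, which guide the modification of ribosomal RNA, lay inside 28 members on the same strand. These hosts were 6 of the 22 members with a peak and 22 of the 70 without. The share over all protein-coding genes was not counted, so these counts describe the members alone.

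Other gene lists were counted by the same rule, which credits 19.9% of all protein-coding genes with a peak. Mitochondrial ribosomal proteins had peaks at 16 of 73 genes (21.9%), led by mRpS23, mRpL23 and mRpS10 with signals of 1100, 498 and 492. Translation factors had them at 9 of 52 (17.3%), led by eIF2Bbeta, eIF6 and eIF4EHP with 1495, 393 and 313. Proteasome subunits had them at 5 of 48 (10.4%), led by Rpn5, Rpn9 and Prosalpha5 with 550, 131 and 108. Of 36 genes listed for ribosome synthesis and growth control, 33 were matched by symbol, and 14 of them (42.4%) had a peak. The genes of this list were picked with earlier results of these data known, so its share cannot be weighed against the 19.9%. The 14 genes were led by Trf2, Irbp18 and Myc with signals of 483, 294 and 270. Trf2 encodes a TBP-related factor used at TCT promoters, Irbp18 a bZIP partner of Xrp1, and Myc the growth-promoting transcription factor. In each of these 4 lists the strongest peak exceeded the 285 of RpL32, the strongest among the 92 members. Only that of mRpS23 had its summit within 500 bp of the gene's own TSS, at 374 bp. The others lay 670 bp (eIF2Bbeta), 2286 bp (Rpn5) and 771 bp (Trf2) from it, and that of Myc 8751 bp. Such peaks may belong to other starts, which was not tested. Gene lengths differ between these lists, with a median of 3083 bp in the growth list, and the counts were not adjusted for them.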

How the data were processed

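Eip93F-GFP binding was measured by chromatin immunoprecipitation with sequencing in whole prepupae, in 2 replicates of 1 group. Per the notes deposited with the files, the authors called peaks in each replicate and in the pooled reads against a control alignment, each list holding 30000 entries with background, and derived the reproducible set of 3401 peaks on dm6 by the irreproducible discovery rate. The signal per peak is the authors' own score in the deposited lists and is comparable only within a list. Which aligner and caller were used is not given in the sources used here. Without read counts the depth is unknown, so the Wilson intervals (confidence level 95%) cover counting error only.

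Summits were placed on protein-coding genes of Ensembl release 115, which uses the same assembly (dm6), with Python 3.11.15, pandas 2.3.3, numpy 2.4.6 and scipy 1.17.1. Genes were credited with summits up to 1000 bp beyond either end. Leading entries were as many of each replicate's strongest as the reproducible set holds. Span-matched shares weight the other genes to the members over 20 bins of gene length, with no random draws. No test between groups was possible, and members are described by counts beside those of all genes. The counting was tested on simulated data. The members and lists were chosen with earlier results of these data known. The naming rule takes every member with a peak (not every one is reported here), with the 5 members without one whose pooled entries ranked best and the 3 strongest genes of each comparison list. The runs from summit to start were added to the 41 bases planned. The lists on dm3 were not used.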

Additional observations from a re-analysis of the deposited data

How the results depend on the processing

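Of 76 recomputed values under other settings, 50 stayed within the limits set for them and 26 moved. The 50 include those from the strongest entries of the pooled list, which equalled the main values throughout and so add no separate check. They also include the share of all other genes without span matching, 19.8%, since its limits were wide, at 7.62 to 21.4%. With summits in the gene span alone, 1 member had a peak (0 large, 1 small subunit), on 1 summit with a median distance of 121 bp to the own TSS, against 2.13% of span-matched others, and the median best ranks were 11533.5 in replicate 1 and 12883 in replicate 2. With a 5000 bp flank 36 members (18 small subunit) and 50 summits counted, with a median distance of 1772.5 bp, against 29.4% of span-matched others. Flanks of 500 and 2000 bp moved the median distance to 190 and 457 bp. With the nearest TSS alone 10 members (6 large, 4 small subunit) and 11 summits counted, at a median of 116 bp. Among the 1700 strongest peaks 8 members (6 large, 2 small) had a peak, 5 within 500 bp of their own TSS, on 9 summits, against 7.02% of span-matched others, a ratio of 1.24. With 1 replicate alone the members with a peak numbered 19 to 26, those with a summit near their own TSS 12 to 18. Adding sta, an alternative chosen after seeing the data, left 22 and 15. Without the members whose symbol ends in -like, 21 members (13 large, 8 small subunit) had a peak and 15 a summit near their own TSS. Without a flank fewer summits can count by construction. No paired analysis was possible because there is 1 group only. Peaks of genes that stand back to back, and reads shared by paralogues, cannot be assigned from these lists.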
